A study of Mus musculus with 9 samples.

Results

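The transcripts of 5 NF-κB subunit genes (Rel, Rela, Relb, Nfkb1 and Nfkb2), 3 classical inhibitor genes (Nfkbia, Nfkbib and Nfkbie) and 2 genes of nuclear IκB proteins (Nfkbiz and Bcl3) were described in sorted dendritic cells (DCs) of the mouse spleen. These 10 members were found by gene symbol among the 54532 genes of a bulk RNA-seq table, and all 10 were among the 12746 genes that passed the filter on low values and were tested. The study compared 3 groups of 3 samples each. N-mDCs were mature conventional DCs (cDCs) from spleens of normal, untreated mice. T-mDCs were mature cDCs from spleens of mice with T cell acute lymphoblastic leukemia (T-ALL), and T-DCs were CD11c+ cells with low MHCII from T-ALL spleens, labelled as immature DCs. The methods of the study describe a leukemia made by retroviral ICN1, the intracellular domain of Notch1 linked to GFP, in c-kit+ bone marrow cells of C57BL/6J mice, and the transfer of the sorted GFP+ leukemia cells without irradiation into C57BL/6J or C57B6.SJL mice. Female mice of 6 to 8 weeks were used, and the cells were isolated on day 15. CD11c+ cells were enriched with beads after lysis of red blood cells and T-DCs were then sorted by flow cytometry, so low MHCII is a property of the gate. The labels do not say whether the 3 samples of a group came from separate mice, and the p-values then measure only the spread between these samples.

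NF-κB is a family of dimeric transcription factors. In resting cells the dimers of RelA or c-Rel (the product of Rel) with p50 (made from Nfkb1) are held in the cytoplasm by IκB proteins, and the IκB kinase complex releases them by marking these inhibitors for degradation. A slower, noncanonical branch turns the p100 product of Nfkb2 into p52, the partner of RelB, and in DCs this family is known for its part in maturation, cytokine genes and survival. IκB-ζ (Nfkbiz) and Bcl-3 act in the nucleus, bound to p50 or p52 dimers.

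The level of a gene is given as FPKM, read fragments scaled by gene length and by library size, so levels may be compared between genes. Between 15360815 and 18440913 reads per sample fell on genes, and each member had between 421 and 18060 reads in a sample, so that counting error was at most 4.87% of a value. All 10 cDC markers examined were at or above 1 FPKM in every sample. Their sum was 16183.5 to 23451 FPKM in N-mDCs, 11000.2 to 15379 in T-mDCs and 709 to 2693 in T-DCs. It came mostly from H2-Ab1, H2-Aa and Cd74, genes of MHCII, which the gate makes low in T-DCs. Itgax, Flt3, Zbtb46, Xcr1, Clec9a and Irf8 were also lower in every T-DC sample than in any mature sample. For Itgax T-DC sample 1 was close, at 152 FPKM beside 158. Sirpa had 404, 177 and 100 FPKM in T-DCs, 195 to 244 in N-mDCs and 124 to 230 in T-mDCs. Of 10 erythroid markers, 10 were at or above 1 FPKM in every T-DC sample, 6 in every N-mDC sample and 3 in every T-mDC sample. The erythroid sum was 614, 58675 and 43052 FPKM in T-DC samples 1 to 3, against 99.6 to 5364 in N-mDCs and 15.5 to 183 in T-mDCs. The neutrophil marker sum was 7.78, 3285 and 1147 FPKM in the same T-DC samples, 55.3 to 612 in N-mDCs and 3.24 to 12.6 in T-mDCs. For B cell markers T-DCs had a sum of 31.2 to 88.7 FPKM, below the 207 to 283 of N-mDCs and overlapping the 49.4 to 179.6 of T-mDCs. For NK cell markers the sum was 43.9 to 133 FPKM among N-mDCs, 1.27 to 25.3 among T-DCs and 1.20 to 3.02 among T-mDCs. The part of neutrophil, B cell and NK cell RNA in the results was not tested. T-mDC samples 2 and 3 were nearly alike, with a mean chi-square per gene of 1.80 for low-count genes against 5.45 or more for any other pair within a group, and were kept as separate samples. In bulk RNA, fewer cells of a type and less RNA of a gene per cell cannot be told apart.

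Expression of 5 of the 10 members was lower in T-DCs in each comparison with a mature population. Rel, Relb, Nfkb2, Nfkbib and Nfkbie fell in T-DCs against N-mDCs, and Rel, Relb, Nfkb2, Nfkbie and Bcl3 fell against T-mDCs (limma on log2(FPKM + 1), Benjamini-Hochberg adjusted p under 0.05 over all genes tested). No member rose. Of all genes tested, 10.3% were called lower and 6.1% higher against N-mDCs, and 8.79% lower and 5.44% higher against T-mDCs. At an unadjusted p under 0.05, 7 members were lower than N-mDCs, where 17.1% of all genes tested were, and 7 lower than T-mDCs, where 15.4% were. With T-mDC samples 2 and 3 averaged into 1 sample, or without either of them, 1 member (Relb) was called lower than T-mDCs, and with the average 3.57% of all genes tested were. The 10 members had a median log2 fold change of -0.93 relative to N-mDCs and -1.03 relative to T-mDCs, beside 0.05 and 0.07 over all genes tested. Every T-DC sample lay below every N-mDC sample for 7 members (16.4% of all genes tested) and below every T-mDC sample for 8 (18.1%). The gap was widest for Relb, whose lowest mature sample was 4.39 times its highest T-DC sample, followed by Rel (2.14 times) and Nfkbie (1.79 times). The 2 comparisons share the T-DC samples.

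**Figure D1:**
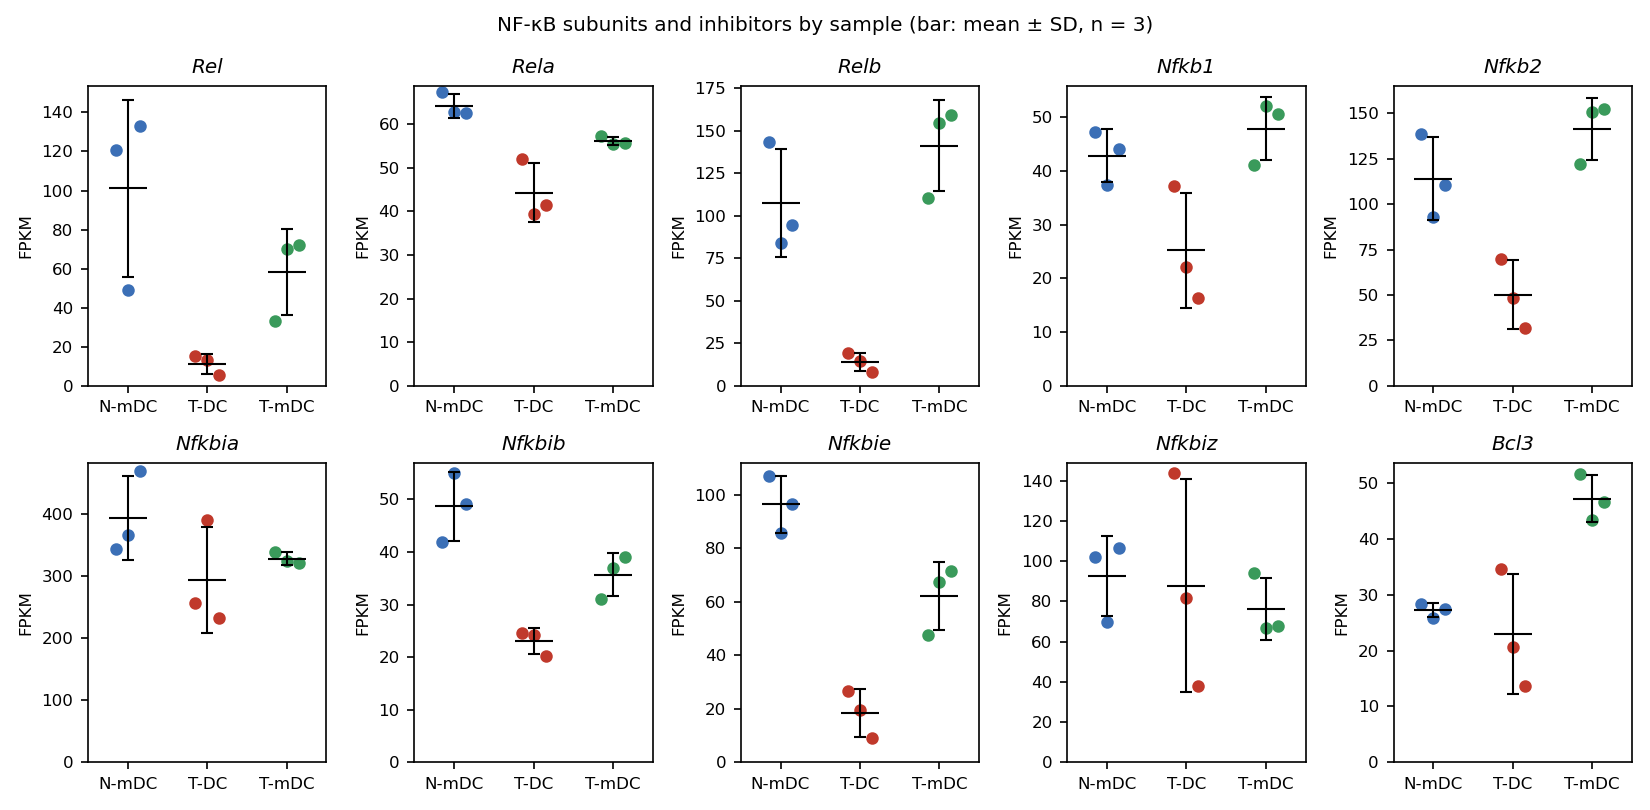
FPKM (vertical axes, each from 0) of the 10 members in the 9 samples, 1 panel per gene and 1 point per sample in N-mDCs (blue), T-DCs (red) and T-mDCs (green), with the mean and SD of 3 samples in black. Relb, Rel and Nfkbie show wide gaps between T-DCs and both mature groups, while Nfkbia and Nfkbiz overlap.

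Reference promoter sequence was available here for 7 of the 10 members, in 9 windows, and is shown because several NF-κB genes are textbook targets of NF-κB itself. RefSeq sequence of GRCm38.p6 was searched in the 250 bases before each start for the κB consensus on both strands. The consensus was GGGRNWYYCC, with R for A or G, W for A or T, Y for C or T and N for any base. It was found in windows of 4 genes, Rel, Nfkbia, Nfkbie and Nfkb2, and in 6 of the 9 windows, against 3.90% of 32851 promoters of the same length and 4.50% of those of tested genes. Nfkb2 is counted more than once among these windows. Its matching windows start at chr19:46304487, 46305445 and 46305680, and the latter pair overlap. The windows below are chr11:23770970-23771219 (minus strand) for Rel, chr12:55492648-55492897 (minus strand) for Nfkbia and chr17:45555450-45555699 (plus strand) for Nfkbie, and for Nfkb2 only the 30 bases around 1 match, chr19:46304688-46304717 (plus strand). All are written 5′ to 3′ on the strand of the gene, with bases of κB matches in capitals.
Rel: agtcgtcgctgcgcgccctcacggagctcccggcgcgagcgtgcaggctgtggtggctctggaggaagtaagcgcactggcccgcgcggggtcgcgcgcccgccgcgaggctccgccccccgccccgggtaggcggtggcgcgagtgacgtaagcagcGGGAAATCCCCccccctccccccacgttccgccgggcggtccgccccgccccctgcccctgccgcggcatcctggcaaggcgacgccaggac
Nfkbia: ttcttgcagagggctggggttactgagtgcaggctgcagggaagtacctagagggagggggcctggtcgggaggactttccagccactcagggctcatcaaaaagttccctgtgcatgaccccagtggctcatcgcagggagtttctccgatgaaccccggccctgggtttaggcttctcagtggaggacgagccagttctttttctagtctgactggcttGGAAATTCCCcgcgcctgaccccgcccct
Nfkbie: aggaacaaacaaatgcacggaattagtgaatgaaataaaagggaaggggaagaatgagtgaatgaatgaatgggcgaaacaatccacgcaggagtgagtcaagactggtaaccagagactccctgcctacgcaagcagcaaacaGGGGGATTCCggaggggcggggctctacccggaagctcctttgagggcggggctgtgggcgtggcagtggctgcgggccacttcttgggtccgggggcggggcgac
Nfkb2: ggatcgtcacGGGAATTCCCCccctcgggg
The matches shown begin 92 bases before the start in Rel, 29 in Nfkbia, 106 in Nfkbie and 39 in Nfkb2. Nfkb2 has others inside its windows, among them matches that begin 11, 236 and 225 bases before the start that each window precedes. Rel, Nfkbie and Nfkb2 were called lower in T-DCs in both comparisons and Nfkbia in neither, so genes with these letters stood on both sides. A match describes the sequence and is no evidence of binding in these cells.

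Relb (ENSMUSG00000002983, chr7:19606217-19629438) encodes the transactivating subunit of the noncanonical branch. Its level was 144, 84.0 and 94.7 FPKM in the 3 N-mDC samples, 110.3, 154 and 159 in T-mDCs, and 19.2, 14.4 and 8.43 in T-DCs. No T-DC sample came near any mature sample. The mean in T-DCs was 14.0 ± 5.38 FPKM (SD, n = 3), 7.67-fold below N-mDCs (107 ± 31.8) and 10.1-fold below T-mDCs (141 ± 27.0). The log2 fold change was -2.88 (SE 0.32, limma adjusted p = 0.00151) against N-mDCs and -3.29 (SE 0.32, limma adjusted p = 0.00143) against T-mDCs. With the erythroid marker level as a covariate the difference from N-mDCs was called and that from T-mDCs was not (log2 fold change -2.31, limma adjusted p = 0.122). With only T-DC sample 1 kept, which was picked after seeing the data as the T-DC sample with the fewest erythroid reads, both were called, but the spread in such a fit comes from the mature groups alone and says nothing of the spread of T-DCs. Relb is also 1 of the DC maturation genes that the study listed.

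Rel (ENSMUSG00000020275, chr11:23736847-23770970) encodes c-Rel, the subunit linked in DCs to IL-12 genes. Its level was 121, 49.3 and 133 FPKM in N-mDCs, 33.0, 70.1 and 71.9 in T-mDCs and 15.4, 13.2 and 5.47 in T-DCs. The T-DC samples were the lowest of all, and sample 2 of N-mDCs and sample 1 of T-mDCs stood below the others of their groups. The mean of 11.4 ± 5.22 FPKM (SD, n = 3) in T-DCs was 8.90-fold below N-mDCs and 5.13-fold below T-mDCs. The log2 fold change was -3.03 (SE 0.50, limma adjusted p = 0.00636) against N-mDCs and -2.29 (SE 0.50, limma adjusted p = 0.0207) against T-mDCs. The first call was lost with the erythroid covariate (-2.04) and with T-DC sample 1 alone (-2.51). The second was lost in 9 of 23 other settings, with a log2 fold change of -0.88 with the erythroid covariate, -2.44 and -1.88 without T-DC sample 2 or 3, and -2.12 and -2.10 without T-mDC sample 2 or 3.

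Nfkb2 (ENSMUSG00000025225, chr19:46304737-46312090), which encodes p100, fell less than its partner Relb in mean level. It had 138, 92.9 and 111 FPKM in N-mDCs, 122, 150.5 and 152 in T-mDCs, and 69.8, 48.4 and 32.1 in T-DCs. T-DCs lay below all mature samples, though their highest sample reached 69.8 FPKM beside a lowest mature sample of 92.9. The fold was 2.27 against N-mDCs (log2 fold change -1.22, SE 0.29, limma adjusted p = 0.0250) and 2.82 against T-mDCs (log2 fold change -1.54, SE 0.29, limma adjusted p = 0.0112). The call against N-mDCs was lost in 9 of 23 other settings, among them without N-mDC sample 1 or 3 (-1.07 and -1.23) or T-DC sample 2 or 3 (-1.23 and -0.94), and that against T-mDCs without T-mDC sample 2 or 3 (-1.49 and -1.48). Both were lost with the erythroid covariate (-0.56 and -0.61) and with T-DC sample 1 alone (-0.68 for the first). In a GENCODE annotation, exons of Nfkb2 overlap those of 2 genes on the opposite strand, AC114539.1 by 531 bases and Psd by 299. That gene model starts at 46304320 and has 4584 exonic bases, against 3289 in the deposited values. The overlap with the gene as counted may thus be smaller, and AC114539.1 has no deposited values. Whether strand was used in counting is not given in the sources used here.

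Of the subunit genes, Nfkb1 and Rela differed least in mean level, unlike Rel, whose product also pairs with p50. Nfkb1 (ENSMUSG00000028163, chr3:135584655-135691547), the source of p50, had 47.2, 37.4 and 44.0 FPKM in N-mDCs, 41.1, 52.0 and 50.6 in T-mDCs, and 37.2, 22.2 and 16.4 in T-DCs. T-DC sample 1 almost touched the lowest mature sample, and neither difference passed the test (log2 fold change -0.81, limma adjusted p = 0.0784 against N-mDCs, and -0.97, limma adjusted p = 0.0522 against T-mDCs). Rela (ENSMUSG00000024927, chr19:5637483-5648130) encodes RelA, a transactivating partner of p50. It had 67.2, 62.6 and 62.5 FPKM in N-mDCs, 57.2, 55.4 and 55.6 in T-mDCs, and 51.9, 39.3 and 41.4 in T-DCs. Its T-DC samples were the lowest of all, but only 1.45-fold below N-mDCs in the mean (log2 fold change -0.54, 95% interval -0.91 to -0.17, limma adjusted p = 0.0552) and 1.27-fold below T-mDCs (-0.35, limma adjusted p = 0.191). Without T-DC sample 1, Rela and Nfkb1 passed the test in both comparisons.

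Among the classical inhibitors, Nfkbie moved most. Nfkbie (ENSMUSG00000023947, chr17:45555703-45563169) encodes IκB-ε, an inhibitor of RelA and c-Rel dimers. It had 107, 85.5 and 96.7 FPKM in N-mDCs, 47.6, 67.2 and 71.5 in T-mDCs, and 26.7, 19.7 and 9.11 in T-DCs, with no overlap among the 3 groups. It fell 5.21-fold against N-mDCs (log2 fold change -2.43, SE 0.35, limma adjusted p = 0.00368) and 3.36-fold against T-mDCs (log2 fold change -1.79, SE 0.35, limma adjusted p = 0.0133). The call against N-mDCs was made in all 23 other settings. The call against T-mDCs was lost in 6 of 23, among them with the erythroid covariate (-0.80) and with T-DC sample 1 alone (-1.17), and without T-mDC sample 2 or 3 (-1.72 and -1.68).

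Nfkbib (ENSMUSG00000030595, chr7:28758251-28767512) encodes IκB-β, which binds the same kinds of dimer. Its level was 41.9, 55.0 and 49.1 FPKM in N-mDCs, 31.1, 36.9 and 39.0 in T-mDCs, and 24.6, 24.3 and 20.3 in T-DCs. The 3 groups did not overlap, and T-DCs varied little among themselves, with a coefficient of variation of 10.5%. It fell 2.11-fold against N-mDCs (log2 fold change -1.04, SE 0.18, limma adjusted p = 0.00709), a call lost with the erythroid covariate (-1.01, limma adjusted p = 0.0642) and with T-DC sample 1 alone (-0.95, limma adjusted p = 0.0602). Against T-mDCs the difference of -0.61 did not pass (limma adjusted p = 0.0542). Its exons overlap those of Sirt2 by 42 bases and of Ccer2 by 314 bases, both on the opposite strand.

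Nfkbia (ENSMUSG00000021025, chr12:55489410-55492647) encodes IκB-α, the inhibitor that NF-κB itself is known to induce as feedback, and had the highest level of the 10 members in every sample. It had 345, 367 and 471 FPKM in N-mDCs, 340.1, 325 and 321 in T-mDCs, and 257, 391 and 233 in T-DCs. T-DC sample 2 stood above 2 of the 3 N-mDC samples and all T-mDC samples, so the groups overlapped. The log2 fold change was -0.45 (95% interval -0.98 to 0.09, limma adjusted p = 0.208) against N-mDCs and -0.20 (95% interval -0.73 to 0.34, limma adjusted p = 0.602) against T-mDCs.

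Nfkbiz varied most among T-DC samples. This gene, which encodes the nuclear protein IκB-ζ (ENSMUSG00000035356, chr16:55811375-55838899), had 102, 70.0 and 106 FPKM in N-mDCs, 94.0, 66.9 and 67.6 in T-mDCs, and 144, 81.6 and 38.1 in T-DCs. The T-DC samples held both the highest and the lowest value of all 9, and their coefficient of variation was 60.4%. The log2 fold change was -0.25 (95% interval -1.23 to 0.73) against N-mDCs and 0.03 (95% interval -0.95 to 1.01) against T-mDCs, and changed sign without single samples. Bcl3 (ENSMUSG00000053175, chr7:19808462-19822770), a partner of p50 and p52 and a near neighbour of Relb, 179023 bases away, had 28.3, 25.9 and 27.4 FPKM in N-mDCs, 51.7, 43.3 and 46.6 in T-mDCs, and 34.6, 20.6 and 13.7 in T-DCs. T-DCs surrounded the N-mDC samples and lay below all T-mDC samples. Bcl3 fell 2.05-fold against T-mDCs (log2 fold change -1.10, SE 0.29, limma adjusted p = 0.0392), a call made in 9 of 23 other settings and lost when any 1 sample but T-DC sample 1 was left out. Against N-mDCs the log2 fold change was -0.33 (95% interval -0.99 to 0.33, limma adjusted p = 0.451). Exons of Bcl3 overlap those of Gm16175, on the opposite strand, by 161 bases.

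Between the mature populations, 0 of 10 members were called by limma in T-mDCs against N-mDCs, where 2.21% of all genes tested were called, and 2 members had an unadjusted p under 0.05, as had 16.7% of all genes tested. The median log2 fold change was -0.22, beside 0.03 over all genes tested. Bcl3 was higher in every T-mDC sample (19.3% of all genes tested), with a mean 1.73-fold that of N-mDCs (log2 fold change 0.77, 95% interval 0.11 to 1.43, limma adjusted p = 0.231). It passed when only these 2 groups were fitted, with estimated sample weights, and without T-DC sample 1 or with it as the only T-DC sample. Nfkbib had a log2 fold change of -0.44 (95% interval -0.84 to -0.03, limma adjusted p = 0.266). Rela, Nfkbia, Nfkbib and Nfkbie were lower in every T-mDC sample than in every N-mDC sample, 4 of 10 members, beside 15.7% of all genes tested, but for Rela the log2 fold change of -0.19 became 0.025 when values were rescaled to TPM, an equal sum per sample. The intervals for Relb (-0.33 to 1.15) and Rel (-1.89 to 0.40) leave room for differences of over 2-fold.

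**Figure D2:**
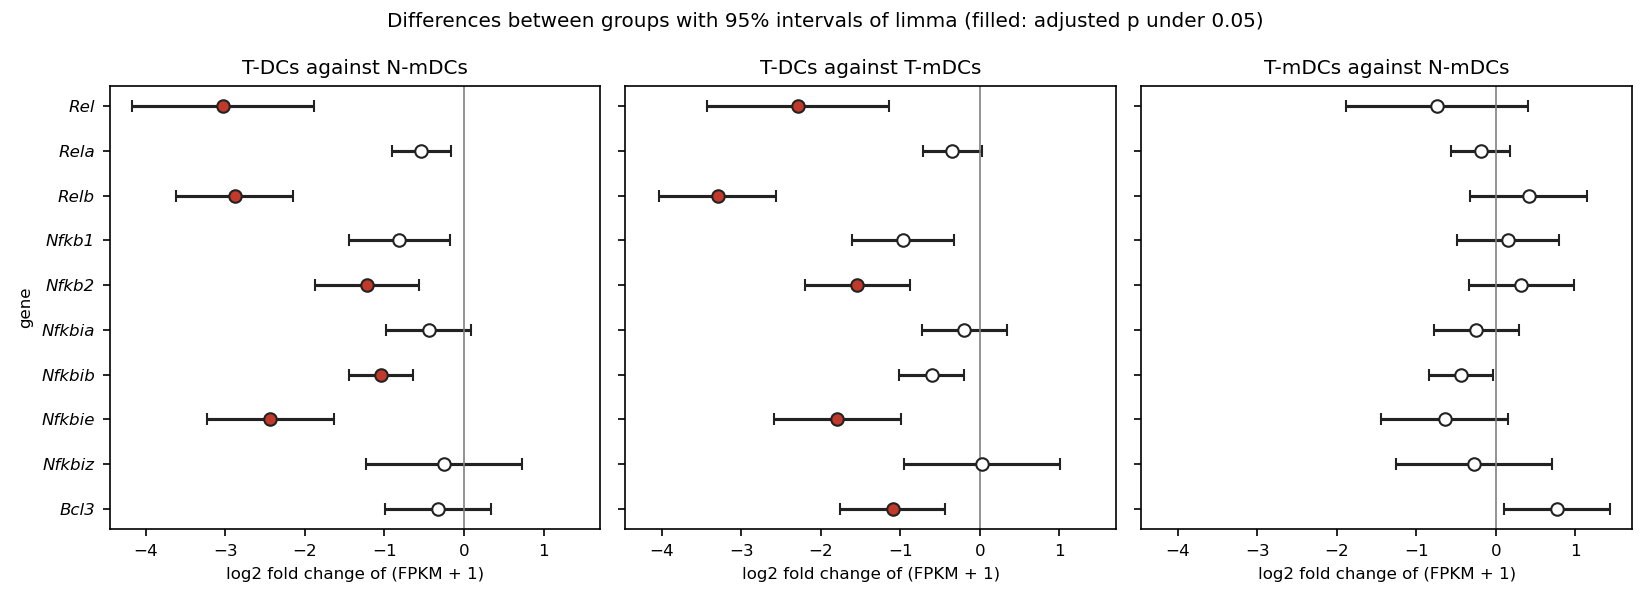
Log2 fold change of FPKM + 1 (horizontal axis) for the 10 members (rows) in the 3 comparisons (panels), with 95% limma intervals, and filled points where the adjusted p was under 0.05. In both T-DC panels 5 points are filled, all below 0, and in the panel of T-mDCs against N-mDCs none is.

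The make-up of the family within a sample differed along with its level. The 5 subunits summed to 326 to 517 FPKM in N-mDCs, 363 to 489.6 in T-mDCs and 104 to 194 in T-DCs. Relb made up 24.9% ± 3.33 of that sum (SD, n = 3) in N-mDCs, 31.6% ± 1.14 in T-mDCs and 9.51% ± 1.24 in T-DCs. Rela, in contrast, made up 15.4% ± 3.32, 12.9% ± 2.49 and 31.8% ± 7.10. The order of Relb and Rela was thus turned over, with 1.34 to 2.14 Relb per Rela in N-mDCs, 1.93 to 2.87 in T-mDCs and 0.203 to 0.369 in T-DCs. Rel per Rela was likewise lowest in T-DCs, at 0.787 to 2.13, 0.577 to 1.29 and 0.132 to 0.335.

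Nfkb2 and Relb, which encode the partners of the noncanonical dimer, were near equal in mature cells and unequal in T-DCs. Nfkb2 per Relb was 0.963 to 1.17 in N-mDCs, 0.955 to 1.10 in T-mDCs and 3.35 to 3.81 in T-DCs. Bcl3 per Relb was 0.197 to 0.308, 0.281 to 0.469 and 1.43 to 1.81. These ratios kept apart in all 3 T-DC samples, sample 1 included, although Relb itself differed 2.27-fold between the highest and the lowest T-DC sample.

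Among the inhibitors, Nfkbia made up a larger share in T-DCs. Nfkbia per Nfkbie was 3.22 to 4.87 in N-mDCs, 4.49 to 7.14 in T-mDCs and 9.65, 19.8 and 25.6 in T-DC samples 1 to 3. The 3 inhibitors per 5 subunits came to 0.954 to 1.55, 0.881 to 1.15 and 1.60 to 3.16, so that every T-DC sample was above every mature one, sample 1 only just. Nfkbia per Rela overlapped among the groups, at 5.13 to 7.53, 5.77 to 5.95 and 4.96 to 9.95. These sums and ratios were not tested and follow from the levels above.

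**Figure D3:**
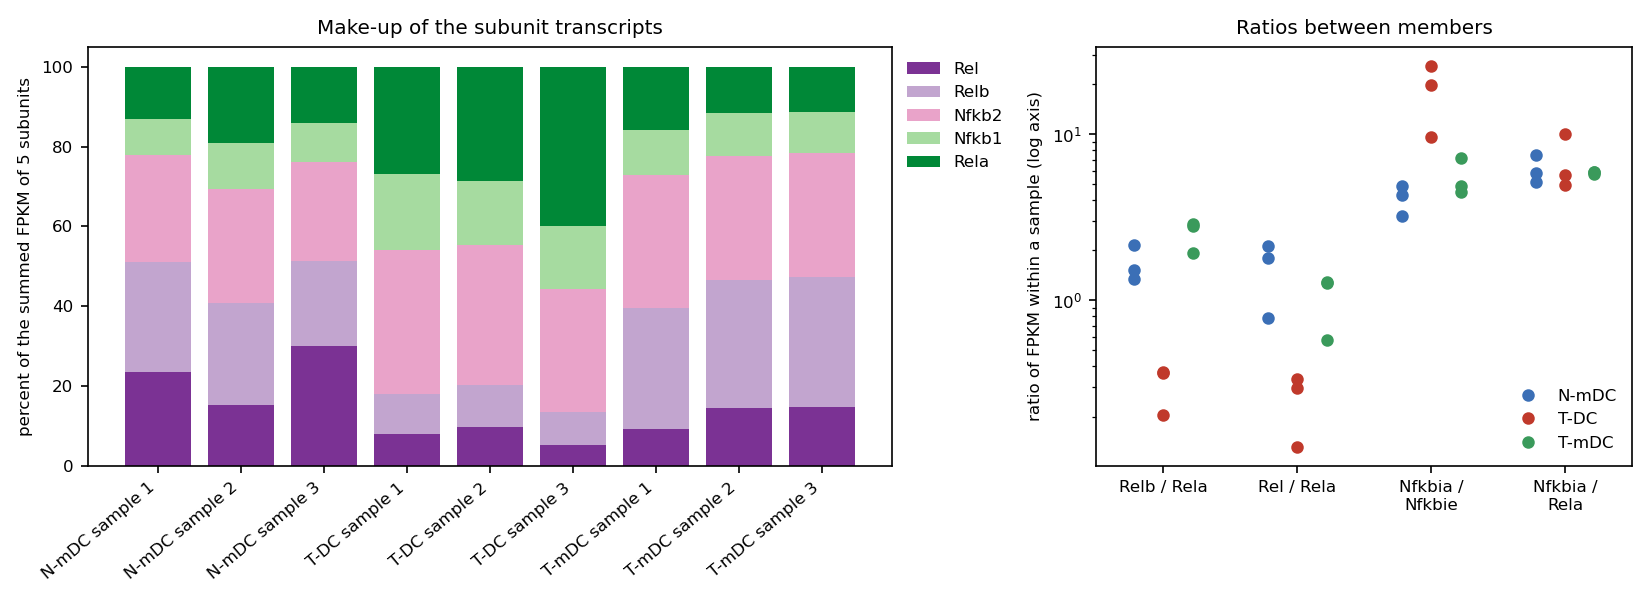
Left, percent of the summed FPKM of the 5 subunits (vertical axis) taken by each subunit (colours) in each of the 9 samples. Right, ratios of FPKM between members within a sample (log axis), 1 point per sample; Relb per Rela is below 1 in all T-DCs and above 1 in all mature samples, while Nfkbia per Rela overlaps.

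The coefficient of variation over samples was highest in T-DCs for 9 of 10 members, all but Nfkbib. The highest T-DC sample was sample 1 in 9 of 10 members, all but Nfkbia, and the lowest was sample 3 in 9, all but Rela. The same counts were not made over all genes tested, so they are not shown to be particular to the members. Over low-count genes at large, the mean chi-square per gene was 17.1 and 19.0 between T-DC sample 1 and samples 2 and 3. For any other pair within a group it was at most 9.39. Sample 1 also had the least erythroid and neutrophil signal and the largest macrophage marker sum, 3124 FPKM against 1247 and 788 in samples 2 and 3. The cDC marker sum, mostly from MHCII genes, was 2693, 1618 and 709 FPKM in samples 1 to 3. Sample 1 by itself was below every mature sample for 8 members, as it was for 20.8% of all genes tested. With sample 1 as the only T-DC sample, a fit whose spread comes from the mature groups alone, 2 members (Relb and Nfkbie) were called lower than N-mDCs, beside 3.55% of all genes tested, and 1 (Relb) lower than T-mDCs, beside 3.51%. Without sample 1, 8 members were called lower in each comparison, and calls over all genes tested also grew, to 19% lower and 20.5% higher with N-mDCs as the reference, and with T-mDCs to 16.8% and 18.3%. With the erythroid covariate, 2 members (Relb and Nfkbie) were called lower than N-mDCs, beside 2.8% of all genes tested, and against T-mDCs 0 of all 12746 genes tested were called in either direction, the members among them. Because this covariate did not overlap between T-DCs and T-mDCs, a call lost with it does not tell erythroid RNA from the group. The part of erythroid RNA in the differences was not tested.

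The profile of Relb over the 9 samples was most like those of Slamf7, Traf1, Ciita, Flt3 and Cd40, measured as the root mean square difference of log2(FPKM + 1) after centring each gene. That difference was 0.13 for Slamf7, a surface receptor, 0.16 for Traf1, an adaptor of TNF receptors, 0.20 for Ciita, the master regulator of MHCII genes, 0.20 for Flt3, the receptor for the main DC growth factor, and 0.21 for Cd40, the receptor for T cell help. Slamf7 had 46.7 ± 13.1 FPKM in N-mDCs, 5.26 ± 2.36 in T-DCs and 58.5 ± 15.8 in T-mDCs (SD, n = 3). Of the other members the nearest were Rel at 0.62 (rank 165 among tested genes), Nfkbie at 0.65 (rank 195) and Nfkb2 at 0.81 (rank 378). Nfkbiz was the farthest, at 1.48.

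Upstream of the family, the kinases and adaptors mostly did not pass the test, as most of all genes tested did not. All 26 genes of that list were tested. Against N-mDCs 1 fell and 1 rose, beside 10.3% and 6.1% of all genes tested. Against T-mDCs 3 fell and 1 rose, beside 8.79% and 5.44%. The list medians were -0.03 and -0.08. The gene that rose in both was Ikbke, which encodes IKK-ε, a kinase related to the IκB kinases (15.5 ± 6.18 FPKM in T-DCs, 1.73 ± 0.67 in N-mDCs and 1.63 ± 1.88 in T-mDCs, SD, n = 3). All T-DC samples were above all mature samples (log2 fold change 2.54, limma adjusted p = 0.0110, and 2.79, limma adjusted p = 0.00841). Malt1, the paracaspase of the CARD-BCL10 complex, fell in both (-2.19 and -2.08), calls lost in 2 and 5 of 23 other settings. Traf2 and Traf6, adaptors of TNF and Toll-like receptors, fell only against T-mDCs by this threshold (-0.96 and -1.14). These calls were lost in 5 and 9 of 23 other settings, and whether the 2 comparisons differ was not tested.

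Of the 19 upstream receptors 18 were tested, all but Il1rap. Against N-mDCs 5 fell and 0 rose, beside 10.3% and 6.1% of all genes tested. Against T-mDCs 8 fell and 0 rose, beside 8.79% and 5.44%. The medians were -0.57 and 0.07. By sign alone, 12 were lower and 6 higher against N-mDCs, and 8 lower and 10 higher against T-mDCs. Cd40 had 1.95, 2.05 and 0.986 FPKM in T-DCs, 17.7 to 23.9 in N-mDCs and 15.3 to 30.7 in T-mDCs (log2 fold change -3.03 and -3.26). Tlr3, Tlr11 and Tlr12, Toll-like receptors typical of the cDC1 subset, also fell in both comparisons, as did Tlr5. Against N-mDCs the calls of Tlr3 and Tlr12 were lost in 14 of 23 other settings and that of Tlr11 in 9. Against T-mDCs the call of Tlr12 was lost in 10 and those of Tlr3 and Tlr11 in 1. Tlr13 and Tlr7 were among the receptors with higher means in T-DCs, and neither passed the test. Tlr13 had a mean of 60.6 FPKM in T-DCs and 22.9 in N-mDCs, without overlap (limma adjusted p = 0.0557). T-mDCs, at 26.8, overlapped (limma adjusted p = 0.0906). Tlr7 had a mean of 33.2 FPKM in T-DCs and 11.7 in T-mDCs, without overlap (limma adjusted p = 0.0587). N-mDCs, at 30.4, overlapped (limma adjusted p = 0.962). Of the 11 feedback inhibitors and atypical IκB genes 10 were tested, all but Tnip3. In this list 6 fell and 1 rose against N-mDCs, and 4 fell and 1 rose against T-mDCs, beside the same shares of all genes tested. The list medians were -1.24 and -1.07. Traf1 fell in both (-3.04 and -3.25), as did Cyld (-1.11 and -1.09) and Otulin (-0.87 and -0.86), which remove ubiquitin chains, but Cyld lost its calls in 13 and 12 of 23 other settings and Otulin in 11 and 12. Irak3, a brake on Toll-like receptor signalling, rose in both (2.33 and 2.15), calls lost in 7 and 11 of 23 other settings. Nfkbid, another nuclear IκB gene, fell against N-mDCs (-2.67, limma adjusted p = 0.00228), with -1.15 (limma adjusted p = 0.0600) against T-mDCs, and Tnfaip3, the gene of A20, gave -2.28 (limma adjusted p = 0.00728) and -1.30 (limma adjusted p = 0.0593).

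Of 24 textbook target genes 22 were tested, all but Ccl17 and Il23a. Against N-mDCs 8 fell and 1 rose, beside 10.3% and 6.1% of all genes tested. Against T-mDCs 11 fell and 2 rose, beside 8.79% and 5.44%. The medians were -1.31 and -1.28. Ccl5 (-5.11 and -5.89), Ptgs2 (-4.49 and -3.83), Cd83 (-4.71 and -3.09) and Ccl22 (-3.85 and -2.40) fell in both comparisons. The call of Ccl22 against T-mDCs was lost in 5 of 23 other settings, among them with T-mDC samples 2 and 3 averaged. Cd83, a surface marker of mature DCs, had 48.4, 34.3 and 13.0 FPKM in T-DCs, 608 to 1013 in N-mDCs and 181 to 291 in T-mDCs. Il12b and Il6 fell against T-mDCs (-4.29 and -3.09) and had -2.10 and -1.02 against N-mDCs (limma adjusted p = 0.0571 and 0.0741). Sod2, a mitochondrial antioxidant enzyme, rose in both (0.83 and 0.77), and Tnfaip2 rose against T-mDCs. In T-mDCs against N-mDCs, Il1b and Tnfaip2 fell and Il6 rose, and no gene of the other 3 lists was called. Of all genes tested, 2.21% were called there in either direction. The loss of all calls against T-mDCs with the erythroid covariate takes in these 4 lists as well.

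**Figure D4:**
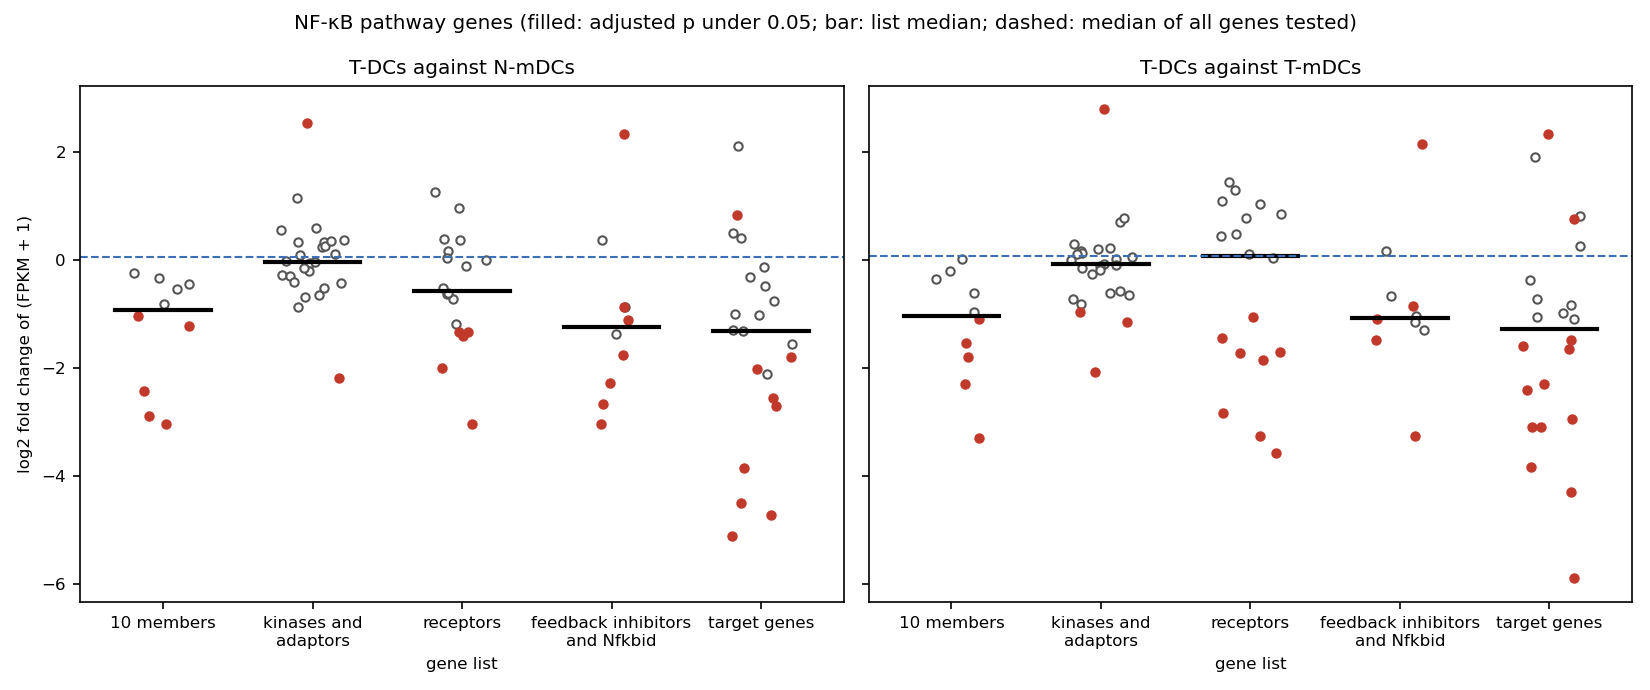
Log2 fold change of FPKM + 1 (vertical axis) of each gene in the 10 members and the 4 pathway lists (horizontal axis) for T-DCs against N-mDCs (left) and against T-mDCs (right). Points are genes, filled where the adjusted p was under 0.05; bars are list medians, which lie below the dashed median of all genes for the members, feedback inhibitors and target genes, and near it for kinases and adaptors.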

How the data were processed

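The authors deposited FPKM values per gene for 9 bulk RNA-seq samples, with genome build mm10 per the submitters' processing notes. The aligner, counter and use of strand are not given in the sources used here. Multiplied by length, the deposited FPKM were whole reads within 4.56e-05 of a read for all 184192 values above 0. Tested genes reached 1 FPKM in 3 or more samples. Values were analysed as log2(FPKM + 1), a scale that understates changes of low genes, by lmFit, contrasts.fit and eBayes (trend) of limma 3.58.1 under R 4.3.3, all 9 samples in 1 fit, Benjamini-Hochberg adjustment and a threshold of 0.05. The fit was tested on simulated data. Alternatives were other scalings, filters, pseudocounts, sample weights, covariates and voom on the recovered reads. The members and lists were chosen with earlier results of these data known. From each pathway list, up to 4 genes called in both T-DC comparisons with the largest mean fold change were named. So were up to 2 called in 1. Genes named beyond these (Tlr5, Tlr7, Tlr13, Sod2, Tnfaip2, Il1b) were chosen after their values were seen. Ranges of ratios and shares carry no test.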

Additional observations from a re-analysis of the deposited data

How the results depend on the processing

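Each result was recomputed in 23 other settings, 22 of them planned and 1, T-DC sample 1 as the only T-DC sample, chosen after seeing the data, as was applying the settings to the pathway lists. Of 690 fold changes of members, 601 kept direction and call, 48 lost the call, 24 gained one and 17 changed sign. Calls over all genes tested went from 10.3% lower and 6.1% higher against N-mDCs to 25% and 27.3% with sample weights, 2.8% and 0.996% with the erythroid covariate and 3.55% and 2.31% with T-DC sample 1 alone, where the lone sample is assumed to vary like the other groups. Against T-mDCs they went from 8.79% and 5.44% to 30.3% and 34.2%, 0% and 0%, and 3.51% and 2.3%. Members called lower than N-mDCs (5) came to 8 with estimated sample weights and 2 with the erythroid covariate or T-DC sample 1 alone, and to 4 to 8 when single samples were left out. Members called lower than T-mDCs (5) came to 8 with sample weights, 3 with no filter or only the groups compared, 1 with T-mDC samples 2 and 3 averaged or T-DC sample 1 alone, 0 with the erythroid covariate, and 1 to 8 without single samples. In T-mDCs against N-mDCs (0 called) 1 was lower with sample weights, and 1 was higher with sample weights, only the groups compared or T-DC sample 1 alone, and 0 to 1 without single samples. Same-numbered samples correlated between -0.47 and 0.27 over 9 pairs, so the numbers were not taken to pair samples, and with the replicate block 3 members were lower than T-mDCs. Nfkbiz against N-mDCs changed sign with the erythroid covariate (0.58), T-DC sample 1 alone (0.65) and without T-DC sample 3 (0.25, with -0.70 to 0.25 over all samples left out). Bcl3 against N-mDCs did so in the first 2 of these (0.23 and 0.34). Nfkbiz against T-mDCs changed sign with TPM (-0.30), quantile normalization (-0.28), voom (-0.13), T-mDC samples 2 and 3 averaged (-0.0527), and without T-DC sample 1 (-0.42) or 2 (-0.02) or T-mDC sample 2 (-0.06) or 3 (-0.05), with -0.42 to 0.52 over all samples left out. Nfkbia against T-mDCs became 0.19 with sample weights. In T-mDCs against N-mDCs, Rela became 0.025 with TPM, Nfkb1 -0.13 with the erythroid covariate and Nfkbia 0.067 with quantile normalization. Against N-mDCs, Traf6 became 0.15 with the erythroid covariate, and Tlr9 0.44 with it and 0.28 with T-DC sample 1 alone. Rescaling to TPM moved the median of all genes tested to -0.04 against N-mDCs, -0.23 against T-mDCs and 0.23 between the mature groups. Over all genes tested, voom on the recovered reads called 1411 lower and 608 higher against N-mDCs (1318 and 778 on log2(FPKM + 1)) and 1432 and 478 against T-mDCs (1120 and 693). Over all settings, genes called lower against N-mDCs and against T-mDCs came to 0 to 10 and 0 to 11 kinases and adaptors, 1 to 9 and 0 to 8 receptors, 2 to 8 and 0 to 8 feedback genes, and 5 to 14 and 0 to 15 targets, and genes called higher to 0 to 4 and 0 to 5, 0 to 2 and 0 to 8, 0 to 1 and 0 to 2, and 0 to 4 and 0 to 4. The causes of these changes were not tested. With 3 samples per group, small fold changes have wide intervals.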
